A study of Arabidopsis thaliana with 15 samples.

Results

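Class III peroxidases are a large family of plant enzymes that are mostly secreted into the cell wall and carry a heme group. With hydrogen peroxide they oxidise phenolic compounds, and so cross-link lignin, suberin and wall proteins such as extensins, which stiffens the wall. They can also produce reactive oxygen species that cut wall polymers and loosen it, and in roots members of the family are known for work in the Casparian strip, the xylem, the root hairs and the switch from division to elongation near the tip. The genes described here are 57 listed class III peroxidase loci, of which 54 had an array row annotated to that gene alone, out of 16548 genes tested. The other 3 loci, AT1G05250, AT1G05260 (RCI3) and AT5G42180 (PER64), had no such row and were not analysed here. A further 16 class III peroxidase loci, linked to root hairs or defence or rising most strongly, were kept apart, so the 54 are not the whole family.

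Whole roots of 10-day-old Arabidopsis seedlings of the Wassilewskija background were measured on 15 arrays, as pools fixed on board an aircraft in level flight before the manoeuvres (n = 4) or after parabola 1 (n = 4), parabola 3 (n = 4) or parabola 10 (n = 3). A parabola is a flight path that gives a short spell of near weightlessness between spells of raised load. Every seedling, level flight included, carried the pCaMV35S:14-3-3κ:GFP transgene, which makes a fluorescent 14-3-3κ fusion from a promoter active in most cells, and no untransformed roots enter the comparison. The root pools of 1 group came from 1 fixation tube, so the effects of group, of tube and of time aloft cannot be told apart, and p-values measure the spread among pools of 1 tube. Values are the deposited log2 levels, differences are in log2 units with their standard error (SE), and a gene is said to have risen or fallen where limma gave a Benjamini-Hochberg adjusted p under 0.05 over all 16548 genes. Because these are bulk roots, fewer cells of a type and less RNA per cell cannot be told apart.

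Of the 54 peroxidase genes, 22 changed in at least 1 comparison, where 21.3% of all genes tested did, and 32 changed in none. Against level flight, 14 rose and 8 fell at 1 or more stages, beside 10.0% and 9.95% of all genes, and no peroxidase gene did both. The genes that fell did so at once: 7 were lower after parabola 1, parabola 3 and parabola 10 alike (3.1% of all genes were), and the eighth, AT4G30170, was lower after parabola 1 and parabola 3. The genes that rose mostly passed the test late: only AT4G37530 was higher at all 3 stages, 3 genes were higher at 2 stages, and 9 passed the test after parabola 10 and at neither earlier stage (3.91% of all genes did). Of those 9 genes, 5 were also higher after parabola 10 than after parabola 1 or parabola 3, and in the other 4 a difference from the earlier stages was not past the threshold. The 3 comparisons share the level flight arrays, so a low or high level flight array moves all of them. Among the peroxidase loci kept apart, AT1G49570, AT5G19890 and AT5G64120 rose and AT1G14550 fell at all 3 stages. Some of these loci were kept apart because they rose most strongly, so their rises do not test how the family behaves. The stage at which a gene passed depends on the threshold, and a positive value that did not pass earlier is not an absence of change. Early falls and late passes were counted in these 54 genes only, and the family as a whole was not tested.

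**Figure D1:**
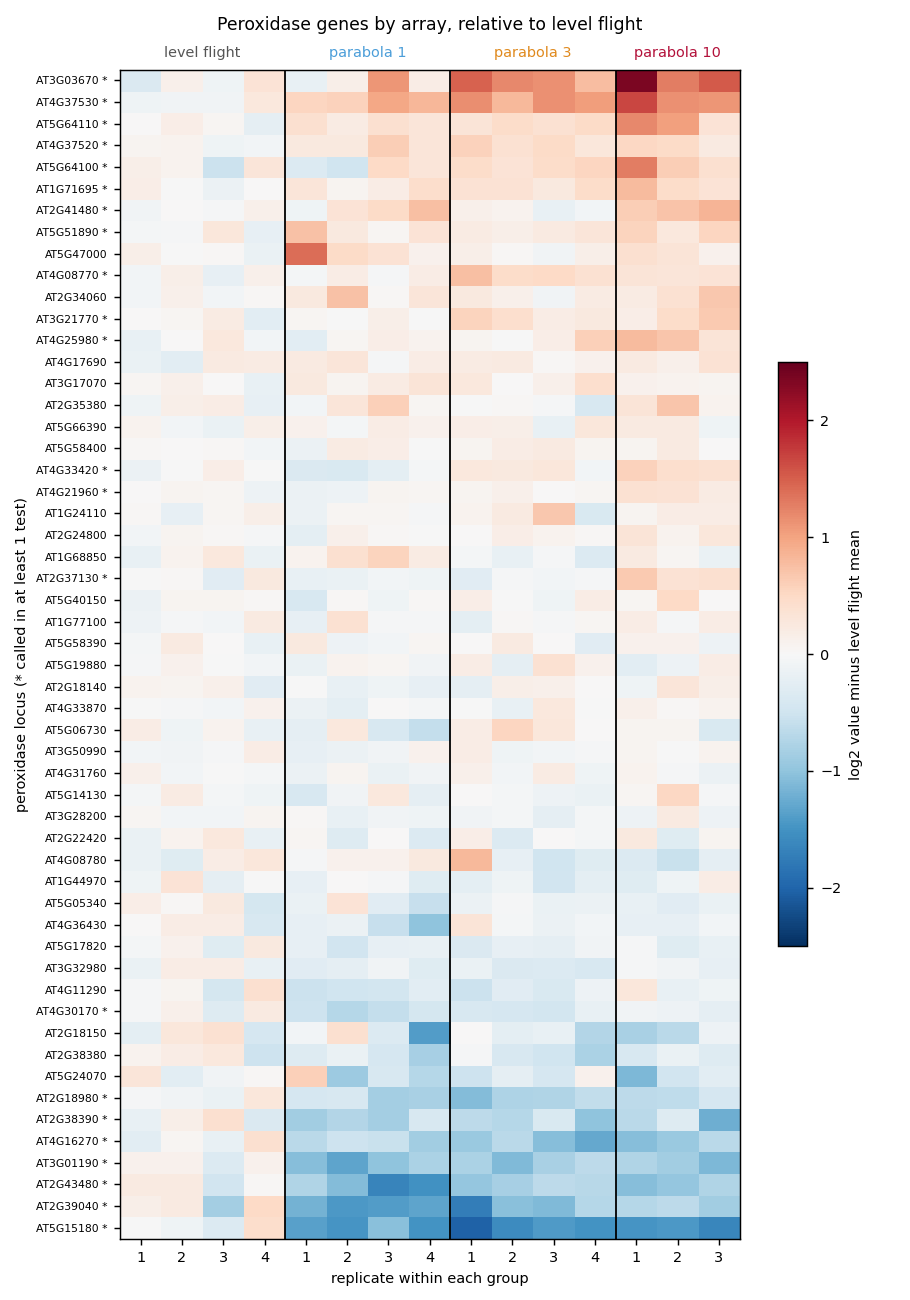
Each of the 54 peroxidase genes (rows) in each of the 15 arrays (columns, in 4 groups from level flight to parabola 10), as the log2 value minus that gene's mean in level flight. Asterisks mark the 22 genes that changed in at least 1 test. The block at the bottom is blue from parabola 1 onwards, while the rows at the top grow redder towards parabola 10.

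After parabola 1, 1 peroxidase gene rose and 8 fell, which is 16.7% of the 54 against 8.33% of all genes tested. After parabola 3, 5 rose and 8 fell, 24.1% against 11.2% of all genes. After parabola 10, 13 rose and 7 fell, 37% against 14.6% of all genes. By direction, 4.85%, 6.70% and 7.11% of all genes fell at the 3 stages, and 3.47%, 4.48% and 7.54% rose. The median absolute difference over the 54 genes was 0.22, 0.19 and 0.29 at the 3 stages, against 0.12, 0.14 and 0.16 over all genes. The signed medians were close to 0, at -0.08, 0.00 and 0.09 against 0.01, 0.03 and 0.04 over all genes. The moderated F-test over the 3 comparisons passed for 19 of the 54 genes (35.2%), against 15.7% of all genes. In 11, 14 and 20 of the 54 genes the arrays of the parabola group and of level flight did not overlap at all, against 14.0%, 15.8% and 24.2% of all genes. Without parabola 10 replicate 1, the parabola 10 count was 11 genes, 7 higher and 4 lower.

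**Figure D2:**
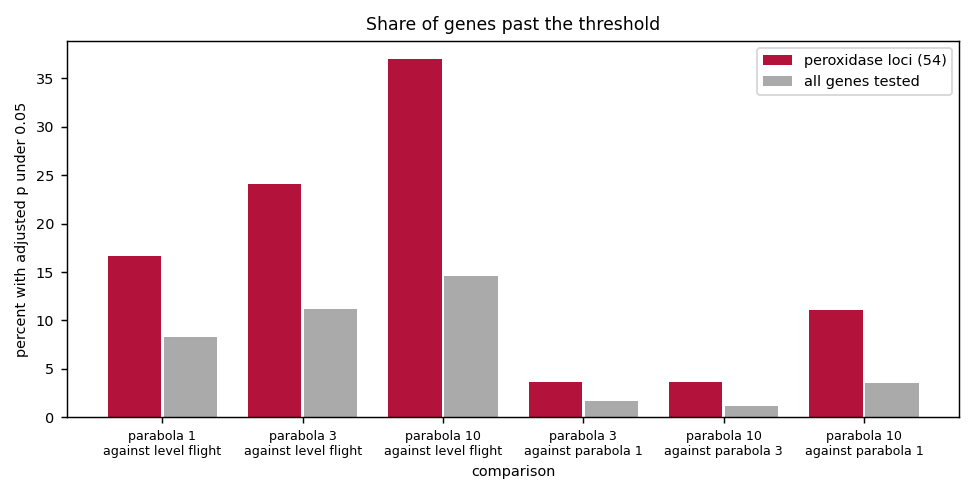
Percent of genes with adjusted p under 0.05 in each of the 6 comparisons, for the 54 peroxidase loci (red) and for all 16548 genes tested (grey). The red bar stands at 16.7%, 24.1% and 37% in the 3 comparisons with level flight, and at 3.7%, 3.7% and 11.1% between parabola groups.

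The deepest fall was that of AT5G15180, a peroxidase gene for which no role is given here. Its log2 levels were 7.65, 7.55, 7.32 and 8.11 in level flight, 6.31, 6.19, 6.62 and 6.17 after parabola 1, 5.63, 6.08, 6.24 and 6.17 after parabola 3, and 6.18, 6.23 and 6.03 after parabola 10. Every array taken after a parabola lay below every level flight array, and the 3 parabola groups overlapped one another. The differences from level flight were -1.34 ± 0.16 (SE, adjusted p = 2.27e-05), -1.63 ± 0.16 (adjusted p = 2.31e-06) and -1.51 ± 0.17 (adjusted p = 7.19e-06), a level 2.53, 3.10 and 2.85 times lower. All 3 calls held under each alternative tried.

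AT2G43480 and AT3G01190 had the same early and lasting drop. AT2G43480 was at 6.70, 6.70, 5.99 and 6.50 in level flight, 5.71, 5.38, 4.82 and 4.95 after parabola 1, 5.51, 5.64, 5.82 and 5.77 after parabola 3, and 5.40, 5.51 and 5.71 after parabola 10. Its groups did not overlap with level flight, and the differences were -1.25 ± 0.18 (adjusted p = 0.000149), -0.79 ± 0.18 (adjusted p = 0.00775) and -0.93 ± 0.19 (adjusted p = 0.00298). AT3G01190 was at 9.59, 9.60, 9.15 and 9.60 in level flight, 8.43, 8.17, 8.47 and 8.70 after parabola 1, 8.69, 8.39, 8.68 and 8.84 after parabola 3, and 8.73, 8.62 and 8.35 after parabola 10. Here too every parabola array was below every level flight array, even below the low level flight replicate 3. The differences of AT3G01190 were -1.04 ± 0.14 (adjusted p = 6.08e-05), -0.83 ± 0.14 (adjusted p = 0.000481) and -0.91 ± 0.15 (adjusted p = 0.000305).

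AT2G39040 fell at all 3 stages, with a level flight array that stood apart. Its levels were 6.59, 6.68, 5.59 and 6.94 in level flight, 5.27, 5.02, 5.06 and 5.14 after parabola 1, 4.72, 5.41, 5.34 and 5.74 after parabola 3, and 5.73, 5.79 and 5.58 after parabola 10. Level flight replicate 3 was about as low as the parabola 10 arrays, so the groups overlapped after parabola 3 and parabola 10. The differences were -1.33 ± 0.23 (adjusted p = 0.000902), -1.15 ± 0.23 (adjusted p = 0.00267) and -0.75 ± 0.25 (adjusted p = 0.0499). The last of these was lost when any 1 of 12 arrays was left out, with adjusted p between 0.0591 and 0.149. The 3 exceptions were level flight replicate 3 and parabola 3 replicates 1 and 4. It was also lost under each of the 3 other scalings of the arrays, with adjusted p between 0.078 and 0.0901.

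AT4G16270 is a target of UPBEAT1, the transcription factor that represses peroxidase genes where root cells stop dividing, and is also known from the tapetum of the anther. Its levels were 3.42, 3.72, 3.50 and 4.07 in level flight, 3.01, 3.16, 3.11 and 2.81 after parabola 1, 2.74, 3.01, 2.60 and 2.39 after parabola 3, and 2.61, 2.74 and 3.01 after parabola 10. No parabola array reached the lowest level flight array, although this gene is dim, with a mean below the median of all genes. The differences were -0.65 ± 0.15 (adjusted p = 0.00909), -0.99 ± 0.15 (adjusted p = 0.000231) and -0.89 ± 0.16 (adjusted p = 0.000958).

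AT2G18980 and AT2G38390 fell by less. AT2G18980 was at 8.87, 8.81, 8.72 and 9.18 in level flight, 8.47, 8.49, 8.05 and 8.08 after parabola 1, 7.82, 8.12, 8.15 and 8.27 after parabola 3, and 8.25, 8.26 and 8.47 after parabola 10. Its groups did not overlap with level flight, and the differences were -0.62 ± 0.13 (adjusted p = 0.00556), -0.81 ± 0.13 (adjusted p = 0.000501) and -0.57 ± 0.14 (adjusted p = 0.011). Without parabola 10 replicate 1 the last was -0.53 (adjusted p = 0.0516). AT2G38390 was at 4.91, 5.24, 5.50 and 4.73 in level flight, 4.22, 4.36, 4.24 and 4.70 after parabola 1, 4.43, 4.38, 4.71 and 4.09 after parabola 3, and 4.42, 4.78 and 3.87 after parabola 10. Its highest parabola 1 and parabola 3 arrays came just under the lowest level flight array, and 1 parabola 10 array overlapped. The differences were -0.71 ± 0.19 (adjusted p = 0.0262), -0.69 ± 0.19 (adjusted p = 0.026) and -0.74 ± 0.21 (adjusted p = 0.0221). Leaving out level flight replicate 2 or replicate 3 lost all 3 calls of AT2G38390, and each call was also lost without certain single arrays of its own parabola group (replicates 1, 2 or 3 after parabola 1, replicates 2 or 4 after parabola 3, replicates 1 or 3 after parabola 10), with adjusted p between 0.0541 and 0.13.

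AT4G30170 was lower after parabola 1 by -0.57 ± 0.11 (adjusted p = 0.00304) and after parabola 3 by -0.37 ± 0.11 (adjusted p = 0.0445), and stood at -0.15 after parabola 10, which did not pass. The parabola 3 call was lost without any 1 of 9 arrays, with adjusted p between 0.0535 and 0.145. Among the 8 genes that fell, level flight replicate 3 was the lowest level flight array in 6, and replicate 4 the highest in 5. The shares over all genes were not computed.

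**Figure D3:**
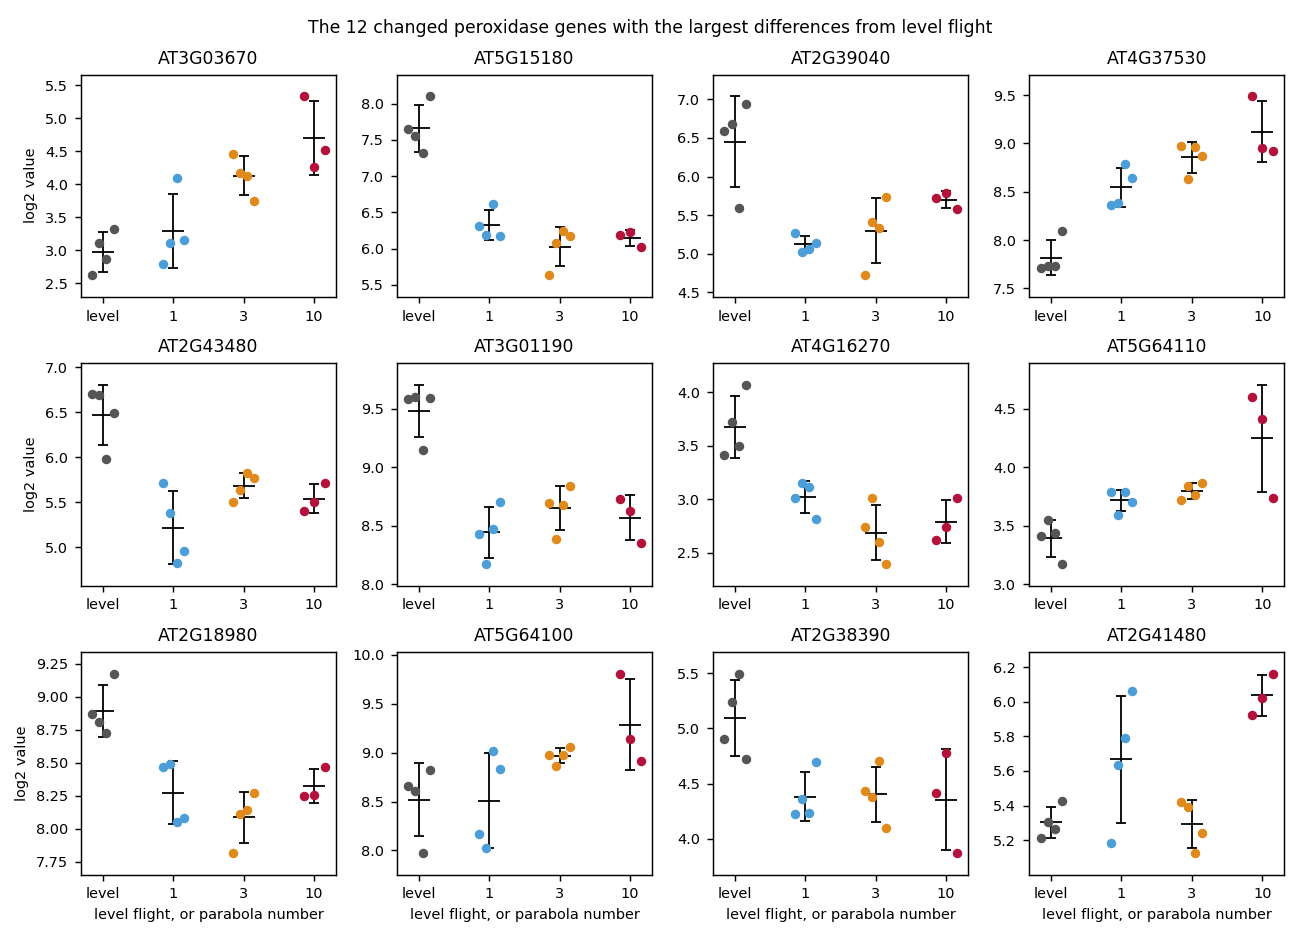
Log2 values of every array for the 12 peroxidase genes with the largest differences from level flight, by group in the order level flight, parabola 1, 3 and 10, with the mean (long bar) and SD (whiskers). AT5G15180, AT2G43480, AT3G01190, AT4G16270 and AT2G18980 drop by parabola 1 and stay apart from level flight. The means of AT3G03670 and AT4G37530 are higher at each stage than at the one before, though no step between neighbouring parabola stages passed.

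AT3G03670 rose more than any other of the 54 genes, and late. Its levels were 2.62, 3.11, 2.87 and 3.32 in level flight, 2.80, 3.12, 4.09 and 3.16 after parabola 1, 4.46, 4.18, 4.12 and 3.75 after parabola 3, and 5.33, 4.26 and 4.51 after parabola 10. After parabola 1 only replicate 3 stood above the level flight range, while every array after parabola 3 and parabola 10 did. The differences were 0.31 ± 0.26 (adjusted p = 0.586), 1.15 ± 0.26 (adjusted p = 0.00627) and 1.72 ± 0.28 (adjusted p = 0.000279), the last a 3.30-fold higher level. The gene was also higher after parabola 10 than after parabola 1, by 1.41 ± 0.28 (adjusted p = 0.00911), and by 1.09 (adjusted p = 0.0557) without parabola 10 replicate 1. The step of 0.84 from parabola 1 to 3 (adjusted p = 0.12) and that of 0.57 from parabola 3 to 10 (adjusted p = 0.394) did not pass.

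AT4G37530 was the only gene of the set that rose at every stage. Its levels were 7.71, 7.73, 7.74 and 8.09 in level flight, 8.36, 8.38, 8.78 and 8.65 after parabola 1, 8.97, 8.63, 8.96 and 8.87 after parabola 3, and 9.49, 8.95 and 8.93 after parabola 10. No array after a parabola was as low as any in level flight. The differences were 0.73 ± 0.14 (adjusted p = 0.00244), 1.04 ± 0.14 (adjusted p = 6.86e-05) and 1.31 ± 0.15 (adjusted p = 9.41e-06). Between neighbouring stages the step of 0.31 (parabola 3 over 1) and that of 0.26 (parabola 10 over 3) did not pass, but parabola 10 exceeded parabola 1 by 0.58 ± 0.15 (adjusted p = 0.0423). That call was lost without any 1 of 9 arrays, and stood at 0.39 (adjusted p = 0.198) without parabola 10 replicate 1.

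AT5G64110 and AT5G64100 lie next to each other and rose after parabola 10. AT5G64110 was at 3.41, 3.55, 3.44 and 3.17 in level flight, 3.79, 3.60, 3.79 and 3.70 after parabola 1, 3.72, 3.84, 3.76 and 3.87 after parabola 3, and 4.60, 4.41 and 3.73 after parabola 10. All parabola arrays were above level flight, but 1 of the 3 parabola 10 arrays lay within the ranges after parabola 1 and parabola 3. The difference after parabola 10 was 0.86 ± 0.15 (adjusted p = 0.000849), and those after parabola 1 and parabola 3, 0.33 and 0.41, did not pass. AT5G64100, known for root hair growth at low temperature, was at 8.66, 8.61, 7.97 and 8.82 in level flight, 8.17, 8.02, 9.02 and 8.83 after parabola 1, 8.98, 8.87, 8.98 and 9.06 after parabola 3, and 9.81, 9.13 and 8.91 after parabola 10. Its parabola 1 arrays split into a low and a high pair, and parabola 10 replicate 1 stood well above the rest. The difference after parabola 10 was 0.77 ± 0.24 (adjusted p = 0.0414), and it was 0.50 (adjusted p = 0.236) without parabola 10 replicate 1, 0.58 (adjusted p = 0.125) without level flight replicate 3 and also not past the threshold without any 1 of 5 further arrays.

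Expansin EXPA7 (AT1G12560), which is made in root hair cells, had levels from 5.52 to 5.89 in level flight. Those ran from 5.73 to 6.18 after parabola 1, 5.95 to 6.54 after parabola 3 and 6.26 to 6.66 after parabola 10. EXPA7 rose by 0.55 (adjusted p = 0.0145) after parabola 3 and by 0.81 (adjusted p = 0.00118) after parabola 10. The other measured root hair marker, AT1G62980, passed in no comparison and ran from 6.41 to 6.70 after parabola 10, against 6.15 to 6.79 in level flight. Of 5 listed root hair markers 2 were measured, and the part of root hair content in the peroxidase values was not tested. None of the 6 endodermis, 6 xylem, 4 phloem and 3 root cap markers listed had a row of its own, so the content of those cell types could not be read. The 1 measured of 7 shoot markers, AT2G34420, ran from 3.42 to 3.62 after parabola 10, against 3.69 to 4.11 in level flight, a difference of -0.36 that did not pass.

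Of the 7 loci listed for lignin and xylem, 6 were measured and 3 of them rose after parabola 10, where 7.54% of all genes rose. AT2G41480 (PRX25) was at 5.21, 5.31, 5.27 and 5.42 in level flight, 5.19, 5.64, 5.79 and 6.06 after parabola 1, 5.42, 5.39, 5.13 and 5.24 after parabola 3, and 5.93, 6.02 and 6.16 after parabola 10. The parabola 1 and parabola 3 arrays overlapped with level flight, and all 3 parabola 10 arrays were above it. PRX25 was 0.73 ± 0.15 above level flight after parabola 10 (adjusted p = 0.00283) and 0.74 ± 0.15 above parabola 3 (adjusted p = 0.0222). The second of these calls was lost without parabola 3 replicate 3 or 4 or without parabola 10 replicate 2 or 3, with adjusted p up to 0.0783. AT4G33420 had levels from 9.58 to 9.89 in level flight, 9.34 to 9.67 after parabola 1, 9.66 to 10.00 after parabola 3 and 10.11 to 10.29 after parabola 10. It was 0.46 ± 0.12 above level flight after parabola 10 (adjusted p = 0.011), and 0.72 ± 0.12 above parabola 1 (adjusted p = 0.00212). The first of these was 0.40 (adjusted p = 0.0598) without parabola 10 replicate 1. It was also higher after parabola 3 than after parabola 1, by 0.44 ± 0.11 (adjusted p = 0.0426), a call lost without any 1 of 10 arrays, with adjusted p up to 0.127.

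The third of these genes, AT5G51890, rose by 0.45 ± 0.14 after parabola 10 (adjusted p = 0.0416), and the call was lost without any 1 of 6 arrays, with adjusted p up to 0.143. The remaining 3 measured lignin and xylem loci passed in no comparison. AT2G22420 stood at -0.15, -0.06 and 0.00 from level flight, PRX52 (AT5G05340) at -0.17, -0.12 and -0.21, and AT4G36430 at -0.48, 0.01 and -0.16.

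None of the 3 measured Casparian strip peroxidases passed in any comparison. These enzymes polymerise the lignin ring that seals the endodermis. AT1G44970 stood at -0.13, -0.27 and -0.07 against level flight after parabola 1, 3 and 10, and PRX72 (AT5G66390) at 0.09, 0.10 and 0.12, with adjusted p of 0.234 or more. AT4G11290, which is also a UPBEAT1 target, stood at -0.44, -0.33 and -0.01 (adjusted p = 0.0917, 0.187 and 0.987). AT5G17820, another UPBEAT1 target, stood at -0.27, -0.22 and -0.18 (adjusted p = 0.207, 0.278 and 0.405). So 1 of these 3 targets, AT4G16270, fell and the other 2 had negative values that did not pass. UPBEAT1 itself (AT2G47270) was at 3.87 to 4.50 in level flight, 4.52 to 4.80 after parabola 1, 3.49 to 4.23 after parabola 3 and 3.74 to 3.98 after parabola 10. Its level was 0.58 ± 0.16 higher after parabola 1 than in level flight (adjusted p = 0.0321), and -0.23 and -0.26 from level flight at the later stages, where it did not pass. Against parabola 1, UPBEAT1 stood at -0.81 ± 0.16 after parabola 3 (adjusted p = 0.016) and at -0.83 ± 0.17 after parabola 10 (adjusted p = 0.0123). The UPBEAT1 values were not refitted under the alternatives, and a link between UPBEAT1 and its targets was not tested. The seed mucilage peroxidase AT3G50990 (PER36) averaged 2.27, 2.19, 2.26 and 2.32 from level flight to parabola 10, with differences of -0.09, -0.01 and 0.05.

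**Figure D4:**
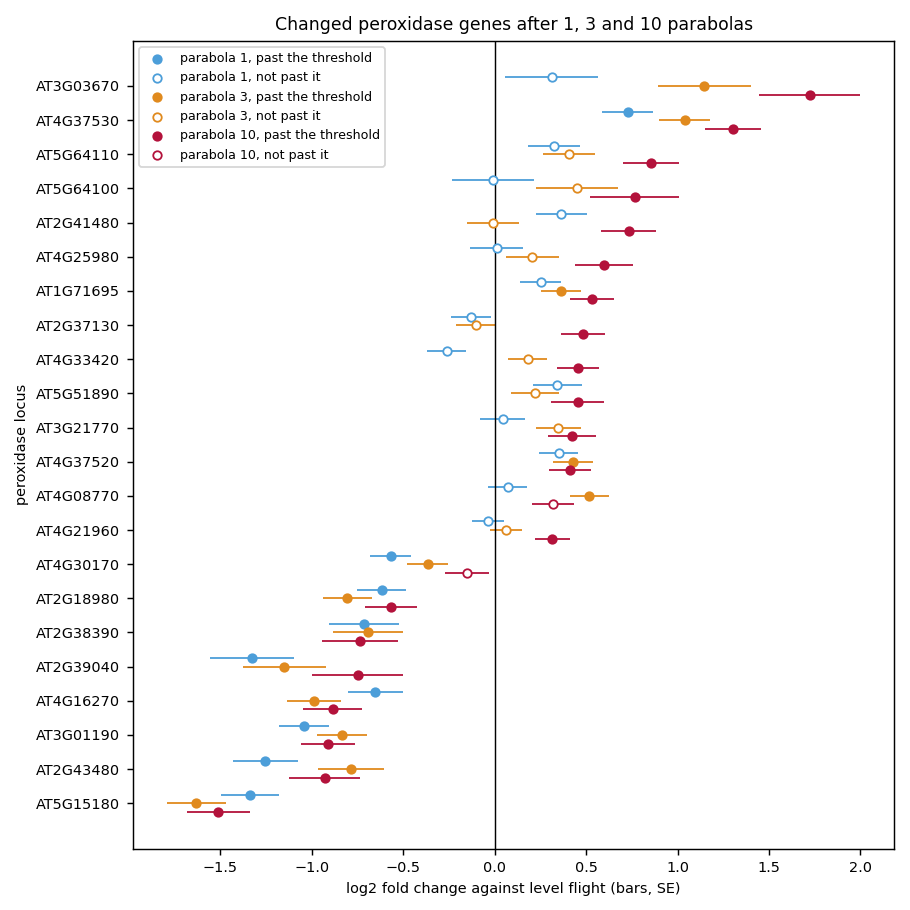
Log2 differences from level flight after parabola 1 (blue), 3 (orange) and 10 (red) for the 22 peroxidase genes that changed in any comparison, with SE bars; filled points passed the test and open points did not. Genes that fell have blue, orange and red points side by side, and in most genes that rose only the red point is filled.

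Other genes rose with smaller differences. AT4G25980 rose after parabola 10, by 0.60 ± 0.16 (adjusted p = 0.0144), and by 0.50 (adjusted p = 0.0831) without parabola 10 replicate 1 or 0.55 (adjusted p = 0.0652) without replicate 2. AT1G71695 rose by 0.36 ± 0.11 after parabola 3 (adjusted p = 0.0432) and by 0.53 ± 0.12 after parabola 10 (adjusted p = 0.00527). The parabola 3 call was lost without any 1 of 8 arrays, with adjusted p up to 0.122, and the parabola 10 call was never lost. AT2G37130 had levels from 4.79 to 5.32 in level flight, 4.87 to 5.00 after parabola 1, 4.79 to 5.04 after parabola 3 and 5.44 to 5.73 after parabola 10. Only the parabola 10 arrays stood apart, by 0.48 ± 0.12 from level flight (adjusted p = 0.0101), 0.58 ± 0.12 from parabola 3 (adjusted p = 0.0222) and 0.61 ± 0.12 from parabola 1 (adjusted p = 0.00911). Without parabola 10 replicate 1 these were 0.39 (adjusted p = 0.0679), 0.49 (adjusted p = 0.122) and 0.52 (adjusted p = 0.054), and without parabola 3 replicate 1 the second was 0.52 (adjusted p = 0.0538).

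Prx37 (AT4G08770), whose overproduction is known to dwarf plants, was highest after parabola 3. Its levels ran from 9.22 to 9.57 in level flight, 9.36 to 9.61 after parabola 1, 9.80 to 10.17 after parabola 3 and 9.71 to 9.76 after parabola 10. It rose by 0.52 ± 0.11 after parabola 3 (adjusted p = 0.00339) and was 0.45 ± 0.11 above parabola 1 (adjusted p = 0.0399). The second call was lost without any 1 of 9 arrays, with adjusted p up to 0.124. After parabola 10 the value of 0.32 did not pass. AT4G37520 rose by 0.43 ± 0.11 after parabola 3 (adjusted p = 0.0141) and by 0.41 ± 0.12 after parabola 10 (adjusted p = 0.0228), the second lost without level flight replicate 3 or 4 or parabola 10 replicate 1 or 2, with adjusted p up to 0.102. AT3G21770 rose by 0.42 ± 0.13 after parabola 10 (adjusted p = 0.0364), lost without any 1 of 5 arrays, with adjusted p up to 0.164. PRXR1 (AT4G21960) rose by 0.32 ± 0.10 after parabola 10 (adjusted p = 0.0323), lost without level flight replicate 1 or 4 or parabola 10 replicate 1 or 2, with adjusted p up to 0.113. In 11 of the 13 genes that rose after parabola 10, replicate 1 was the highest of the 3 parabola 10 arrays. The share of all genes with that order was not computed, so this is not read as a trait of these genes.

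Between the parabola groups all changes of these genes were rises at the later stage. From parabola 1 to parabola 10, 6 of 54 genes passed, all higher at parabola 10 (11.1% against 3.56% of all genes, with 1.73% higher). They were AT3G03670, AT4G33420, AT2G37130, AT4G25980, AT4G37530 and PRXR1. The PRXR1 difference of 0.35 (adjusted p = 0.0496) was lost without any 1 of 14 arrays and that of AT4G25980, 0.59 (adjusted p = 0.0467), without any 1 of 10. Leaving out 1 array left between 1 and 7 such genes. For parabola 3 over parabola 1, 2 genes passed, both higher (Prx37 and AT4G33420; 3.7% against 1.72% of all genes, with 0.761% higher), and for parabola 10 over parabola 3, 2 passed, both higher (PRX25 and AT2G37130; 3.7% against 1.17%, with 0.592% higher). Of the 54 genes, 37 had a positive value for parabola 3 over 1, 39 for parabola 10 over 3 and 43 for parabola 10 over 1. The medians were 0.08, 0.11 and 0.13 against 0.02, 0.02 and 0.04 over all genes. The share of all genes with a positive value was not computed, and signs of small values depend on the scaling. With arrays centred on their medians, the all-gene median for parabola 10 over 1 was 0.15. The groups did not overlap in 3, 7 and 14 of the 54 genes in these 3 comparisons, against 7.54%, 9.67% and 14.7% of all genes.

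The median of 7083 rows with no gene listed differed between groups. Of 20927 rows with no gene listed, these are the ones before the first annotated row. What they measure is not given, so their median is not read as array background. The median of the tested genes lay between 3.65 and 3.70 in every array. The median of the 7083 rows ran from 2.43 to 2.52 in level flight and 2.56 to 2.68 after parabola 1. It ran from 2.41 to 2.58 after parabola 3 and 2.39 to 2.48 after parabola 10. So all parabola 1 arrays stood above level flight and above all parabola 10 arrays. Group and median are thus confounded for parabola 1 against level flight and for parabola 10 over parabola 1. A call lost with the covariate does not tell their effects apart. With that median as a covariate, 4 of the 54 genes fell after parabola 1 and none rose, against 8 and 1 without it. No peroxidase gene then passed for parabola 10 over parabola 1. Over all genes, the calls were 482 with the covariate against 1378 without it after parabola 1, and 1 against 589 for parabola 10 over parabola 1. The 4 genes were AT5G15180, AT2G43480, AT4G16270 and AT4G36430, and AT4G36430, at -0.99 (adjusted p = 0.0214), passed with the covariate alone. After parabola 1, AT2G39040 then stood at -0.82 (adjusted p = 0.24), AT2G38390 at -0.37 (adjusted p = 0.63) and AT4G30170 at -0.44 (adjusted p = 0.235). AT3G01190 stood at -0.74 (adjusted p = 0.0539), AT4G37530 at 0.83 (adjusted p = 0.0557) and AT2G18980 at -0.68 (adjusted p = 0.105).

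Tandem pairs allowed neighbouring copies to be set against each other within an array, which cancels a shift that is equal in log2 units for both. A shift that depends on level is not cancelled, and the genes of a pair can differ much in level. AT4G37520 averaged 3.32 in level flight, and AT4G37530 averaged 7.82. Of 7 listed pairs, 6 had both genes measured, and all 6 were next protein-coding neighbours in TAIR10.1. In 18 exact two-sided permutation tests none had an adjusted p under 0.05, and the smallest adjusted p was 0.294; 1 had an unadjusted p under 0.05. The smallest p these tests can give is 0.0286 for 4 arrays against 4 and 0.0571 for 3 against 4, so no parabola 10 test could reach 0.05. An adjusted p under 0.05 would have needed nearly all parabola 1 and parabola 3 tests at that smallest p. The absence of such a value therefore says nothing about equal change within a pair. How far the probes of near-identical neighbours also bind each other's transcripts cannot be read from these values.

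AT4G37520 and AT4G37530 both rose, AT4G37530 with the larger values. The difference AT4G37520 minus AT4G37530 was -4.88 ± 0.11 (SD, n = 4) after parabola 1, -5.11 ± 0.14 (SD, n = 4) after parabola 3 and -5.39 ± 0.25 (SD, n = 3) after parabola 10, against -4.50 ± 0.25 (SD, n = 4) in level flight. Its change was -0.38 (exact permutation p = 0.0857), -0.61 (exact permutation p = 0.0286) and -0.89 (exact permutation p = 0.0571), and the last 2 groups did not overlap with level flight. Prx37 minus AT4G08780 shifted by 0.57 after parabola 3 (exact permutation p = 0.0857) and by 0.69 after parabola 10 (exact permutation p = 0.0571), where the groups did not overlap, while AT4G08780 itself stood at -0.05 and -0.37 from level flight and did not pass. AT5G64100 minus AT5G64110 shifted by -0.34, 0.04 and -0.09, and by -0.53, -0.15 and -0.29 without level flight replicate 3. AT2G38380 stood at -0.43, -0.43 and -0.30 beside its neighbour AT2G38390 and did not pass. AT2G18140 against AT2G18150 shifted by 0.23, 0.31 and 0.65 and AT5G58390 against AT5G58400 by -0.03, -0.15 and -0.07, with overlapping arrays in all 6 cases.

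**Figure D5:**
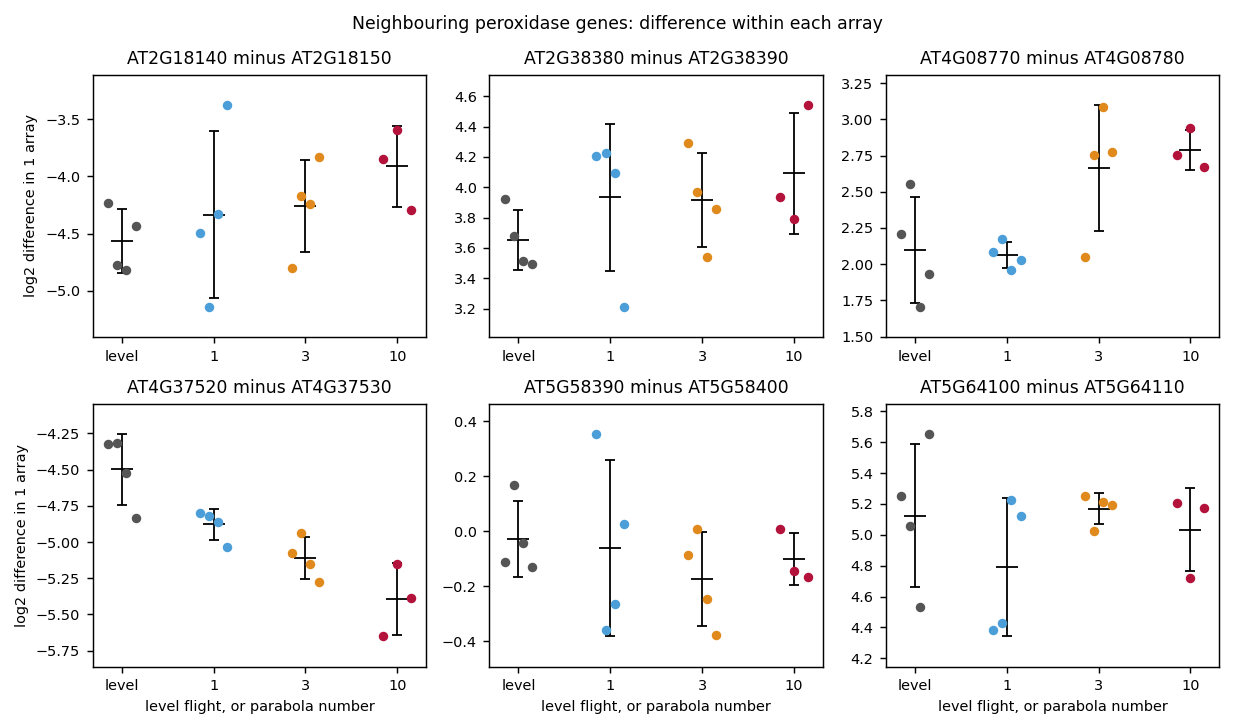
Difference in log2 value between the 2 genes of each of 6 neighbouring pairs within each array, by group, with mean and SD. A shift between groups stands for unequal change of the 2 log2 values, which can also come from a shift that depends on level. The height itself compares different probes and is not read. The pair AT4G37520 and AT4G37530 has a lower mean at each stage, and the arrays of the other pairs overlap with level flight apart from Prx37 with AT4G08780 after parabola 10.

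The peroxidase genes differed widely in brightness. The median level over all genes tested was 3.66, and 36 of the 54 peroxidase genes lay above it and 18 below. Of the 36 genes above it 20 changed, and of the 18 below it 2 did, AT4G16270 and AT4G37520, while 32.4% of all genes above the median and 10.3% of the others changed. The 32 peroxidase genes that passed no test held 16 below the median. In 12 of the genes that passed no test every array was under 3. The 32 genes lay between -0.48 and 0.59 of level flight after parabola 1, between -0.43 and 0.25 after parabola 3 and between -0.63 and 0.42 after parabola 10. Of these genes 7, 3 and 4 had an unadjusted p under 0.05 at the 3 stages. The share of all genes at that level was not computed, so these counts are not read.

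Few other genes of the same chemistry had a row annotated to them alone. Of the 16 peroxidase loci kept apart, 10 were measured: AT1G49570, AT5G19890 and AT5G64120 rose and AT1G14550 fell at all 3 stages, and AT3G49110 fell after parabola 1 and parabola 10. Respiratory burst oxidases make the superoxide from which hydrogen peroxide for peroxidases can form. Of 10 listed, 2 were measured, and they moved in opposite directions. AT4G25090 rose by 0.58 after parabola 3 (adjusted p = 0.0164) and 0.82 after parabola 10 (adjusted p = 0.00187), while AT4G11230 stood at -0.72, -0.78 and -0.97 and fell at all 3 stages (adjusted p = 0.00534, 0.00259 and 0.000543). Of 17 listed genes for monolignols, the phenolic units of lignin, 2 were measured, and AT1G80820, a cinnamoyl-CoA reductase gene, fell by 1.50, 1.51 and 1.91 (adjusted p = 5.58e-05, 4.64e-05 and 5.64e-06). The other, AT5G48930, stood at 0.10, 0.17 and 0.27 and did not pass. Of 17 laccases, the copper enzymes that also polymerise lignin, 2 were measured, and the dim AT5G01050 rose by 0.44 after parabola 10 (adjusted p = 0.0385), while AT5G58910 stood at -0.10, -0.17 and -0.30 and did not pass.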

How the data were processed

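Root RNA was hybridised to AraGene 1.0 ST arrays, 1 array per root pool, in the groups level flight, parabola 1, parabola 3 and parabola 10. The deposited values are log2 levels per array row. RMA, oligo, limma, R 4.0.0 and TAIR10 are named per the submitters' processing notes, without the role of each; any filter or other scaling is not given in the labels. The deposited table has 38408 rows, of which 16722 were annotated to 1 gene, 759 to several and 20927 to none in the platform annotation. For 148 genes with more than 1 such row the row with the highest mean was kept, which gave 16548 genes. No column belonged to another sample.

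The values were kept as deposited. limma 3.58.1 in R 4.3.3 (lmFit with 1 mean per group over all 15 arrays, eBayes, two-sided, Benjamini-Hochberg over all genes tested) gave the 3 contrasts with level flight, the 3 between parabola groups and the moderated F-test. Neighbouring genes were compared with exact permutation tests in scipy 1.17.1. The limma step was tested on simulated data, and the permutation step on a made-up case with a known p. The number of arrays limits the precision.

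Genes are named if adjusted p was under 0.05 in any test (the 12 with the largest differences from level flight with every array), if they have a listed role, or if they belong to a measured neighbouring pair. The members and lists were chosen with earlier results of these data known. Alternatives changed the scaling, the filter on dim genes, the rows, the arrays in the fit, the variance model, a block on replicate number, a covariate and the threshold, and left out each array in turn. Gene names and neighbours came from RefSeq (TAIR10.1), which matched 16574 rows.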

Additional observations from a re-analysis of the deposited data

Results flagged for a closer look

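Over the 36 named peroxidase genes, 108 groups of 4 arrays were examined for a single array far from the other 3 (Dixon's gap test), and 10 had one, where chance gives about 1 in 20. In level flight, AT3G01190 was at 9.15 in replicate 3 against 9.59 to 9.60 in the others, and AT4G37530 at 8.09 in replicate 4 against 7.71 to 7.74. Replicate 4 of level flight was low for AT2G18140, at 2.98 against 3.34 to 3.39, and for AT5G58400, at 2.22 against 2.31 to 2.33. After parabola 1, AT4G37520 was at 3.92 in replicate 3 against 3.56 to 3.61 and AT5G17820 at 8.13 in replicate 2 against 8.41 to 8.43. After parabola 3, AT2G37130 was at 4.79 in replicate 1 against 5.00 to 5.04 and AT5G05340 at 3.76 in replicate 2 against 3.62 to 3.64. Replicate 4 of parabola 3 was high for AT4G30170, at 8.57 against 8.30 to 8.35, and low for AT4G33420, at 9.66 against 9.98 to 10.00. Groups of 3 arrays (parabola 10) were not examined this way.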

How the results depend on the processing

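Of 52 values of single genes past the threshold, none changed sign over 1248 alternative values, 22 stayed past it under every alternative and 30 were lost under at least 1. The alternatives for single genes between parabola groups were chosen after seeing the data. Of 128 values of named genes that did not pass, 17 passed under some alternative, and 118 of their 3066 alternative values had the opposite sign. Some counts of peroxidase genes past the threshold were lower with the median of the 7083 unnamed rows as a covariate. They were 4 after parabola 1 (9 as reported) and 0 for each comparison between parabola groups. At an adjusted p under 0.01 they were 9 after parabola 10 (20 as reported), 3 for parabola 10 over 1 (6 as reported) and 0 for both other comparisons between parabola groups. Parabola 3 over 1 (2 as reported) gave 0 with quantile normalization, with all rows tested and with the 2 groups alone, and 1 with centring on reference genes. At an unadjusted limma p under 0.05, looser than the threshold used here, the counts were 12 genes in that comparison and 7 for parabola 10 over 3. The share of all genes at that looser level was not computed, so these 2 counts are not read. Parabola 10 over 3 (2 as reported) gave 0 with all rows tested and 1 with the 2 groups alone. Parabola 10 over 1 gave 10 with arrays centred on their medians, which moves the median of all genes from 0.04 to 0.15. The causes were not tested.

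Leaving out 1 array gave 8 to 11 genes after parabola 1, 10 to 14 after parabola 3, 11 to 20 after parabola 10, 0 to 2 for parabola 3 over 1, 1 to 2 for parabola 10 over 3, 1 to 7 for parabola 10 over 1 and 15 to 20 by the F-test. The neighbouring pairs gave 0 throughout (0 to 0), which says nothing about stability, since with a level flight, parabola 1 or parabola 3 array left out no pair test could reach an adjusted p under 0.05. Same-numbered arrays of different groups had correlations of their deviations from -0.08 to 0.11 over 21 pairs. Arrays with different numbers had correlations from -0.13 to 0.15 over 63 pairs. Over all genes there was thus no sign that the numbers pair the samples, but a pairing that touches only some genes cannot be read this way. With the replicate block, the counts were 13, 14 and 17 against level flight, 0 for parabola 3 over 1, 2 for parabola 10 over 3, 6 for parabola 10 over 1 and 21 by the F-test.

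After parabola 10, 13 of the 54 genes rose and 7 fell, and 15 rose and 6 fell under each of the 3 scalings. Over all genes the share of calls that were lower was 58.3% after parabola 1 and 73.1% with arrays centred on their medians. After parabola 10 it was 48.5%, and 36.8% with centring on reference genes. For parabola 10 over 1 it was 51.3%, against 17.7% with median centring, 29.4% with quantile normalization and 30.6% with reference genes. For parabola 3 over 1 it was 55.8%, against 29.6% with median centring, and for parabola 10 over 3 it was 49.2%, against 38.8% with median centring.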
